A study of Homo sapiens with 4 samples.

Results

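The aldo-keto reductases described here are 7 genes of the human enzyme family that reduces aldehydes and ketones with NADPH: AKR1A1, AKR1B1, AKR1B10, AKR1C1, AKR1C2, AKR1C3 and AKR7A2. They were taken by name and Ensembl identifier from 58560 annotated genes with a deposited transcript, after transcript counts had been summed to genes. All 7 passed the filter on low counts, which left 24527 genes for testing. The study sequenced polyadenylated RNA of A549, an established line from a human lung adenocarcinoma. Of the 4 libraries, 2 came from control cells in complete DMEM medium with serum and 2 from cells that were washed and then kept in glutamine-free DMEM with serum for 24 h. The treatment label of the second deprived library gives 25 h, although the protocol gives 24 h for all. The sources used here describe no wash of the control cells and do not say whether the serum was dialysed, nor whether libraries of a group came from separate cultures. The p-values below therefore measure the spread between these libraries, which may be technical.

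The enzymes share a barrel-shaped fold and a catalytic tyrosine, and they convert reactive carbonyls, steroids, prostaglandins, retinal and sugars to alcohols. AKR1B10 and the AKR1C genes are textbook targets of NRF2, a transcription factor that its partner KEAP1 marks for degradation. A549 cells carry a damaged KEAP1 and are known for high NRF2 activity and abundant AKR1C and AKR1B10 messages.

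After glutamine deprivation, 6 of the 7 genes fell and none rose, at an adjusted p under 0.05 in edgeR's quasi-likelihood test over all tested genes. AKR1C1, a progesterone-reducing enzyme, fell the furthest, 7.33-fold, and AKR1B1, the aldose reductase, was the gene that did not pass the test. By the same rule 24.4% of all tested genes fell and 25.2% rose, 49.6% in either direction, and among the protein-coding genes 29.8% fell and 34.3% rose. The median log2 fold change was -1.67 over the 7 genes and -0.06 over all tested genes. The deprived libraries both lay below both controls for all 7 genes, which was true of 40.5% of tested genes. In RNA from whole cultures, fewer cells that express a gene and less of its RNA per cell cannot be told apart.

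How close these genes are to each other limits what can be said of each, so the AKR1C coding sequences are shown first, at the stretch where AKR1C1 and AKR1C2 differ the most. Of the 969 coding bases of AKR1C1 and AKR1C2, 19 differ, an identity of 98.0%. No base differs from coding position 784 to 969, a run of 186 bases. AKR1C3 is 91.4% identical to AKR1C1 and AKR1C4 88.5%. The lines below give coding bases 103 to 162, counted from the start codon and read from the GENCODE release 29 transcripts, with capitals where a gene differs from AKR1C1 (10, 7 and 5 bases).
AKR1C1: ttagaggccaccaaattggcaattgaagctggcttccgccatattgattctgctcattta
AKR1C2: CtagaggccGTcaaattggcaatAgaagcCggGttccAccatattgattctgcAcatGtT
AKR1C3: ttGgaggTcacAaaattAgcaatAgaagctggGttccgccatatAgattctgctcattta
AKR1C4: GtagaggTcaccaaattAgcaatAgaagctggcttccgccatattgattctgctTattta
A read from such a stretch can be placed on its gene, whereas a read lying wholly within the last 186 coding bases matches AKR1C1 and AKR1C2 equally.

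The upstream sequences of the AKR1C genes are also alike, and are shown because these genes fell together. The lines below hold the bases from 110 to 11 before an annotated start, from RefSeq on GRCh38.p14, with the motif CCAAT, here as its reverse complement, in capitals. The stretches are chr10:4963305-4963404 on the plus strand for AKR1C1, chr10:5003868-5003967 on the minus strand for AKR1C2, and chr10:5048671-5048770 and chr10:5094304-5094403 on the plus strand for the first and second listed start of AKR1C3.
AKR1C1: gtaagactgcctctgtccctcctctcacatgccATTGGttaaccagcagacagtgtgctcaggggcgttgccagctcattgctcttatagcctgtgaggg
AKR1C2: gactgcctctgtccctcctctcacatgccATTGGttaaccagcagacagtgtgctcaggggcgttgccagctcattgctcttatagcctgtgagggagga
AKR1C3 first start: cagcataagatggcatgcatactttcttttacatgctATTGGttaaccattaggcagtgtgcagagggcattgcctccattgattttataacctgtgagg
AKR1C3 second start: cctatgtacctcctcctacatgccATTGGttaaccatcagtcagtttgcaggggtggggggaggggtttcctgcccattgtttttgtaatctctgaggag
The AKR1C1 and AKR1C2 stretches share an unbroken run of 96 bases, and their whole promoter windows, 250 bases before to 50 after the start, were 93.5% identical. The first AKR1C3 window was 73.5% identical to that of AKR1C1. CCAAT on either strand occurs in 34.6% of the 35116 promoter windows of the table. It was also in both windows of AKR1B1, the gene that did not pass the test, as the same site in their overlap. None of the windows of AKR1A1 and AKR7A2, which fell, held it. The core of the antioxidant response element bound by NRF2 was searched as TGACNNNGC on both strands. It was found in 13.3% of all windows and, among the genes with a window, in AKR7A2 and in none of AKR1A1, AKR1B1, AKR1C1, AKR1C2 and AKR1C3. AKR1B10 had no promoter window here, so it was not searched for either motif. A match is only a match of letters, and 300 bases leave out more distant elements. The AKR7A2 stretch, chr1:19312227-19312326 on the minus strand, from 180 to 81 bases before the start, holds 3 matches, in capitals.
AKR7A2: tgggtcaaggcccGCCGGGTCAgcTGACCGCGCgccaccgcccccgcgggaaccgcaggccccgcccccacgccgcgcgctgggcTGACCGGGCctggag

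The genes differed widely in abundance, compared on a length-scaled measure computed here (TPM), which is counts per kilobase of each annotated transcript scaled to the same total in every library. In control cells AKR1C3 stood at 6170 and 5958 TPM, AKR1B10 at 5779 and 5659, AKR1B1 at 3655 and 3557, and AKR1C2 at 2980 and 3155. AKR1C1 followed at 929 and 955 TPM, far above AKR1A1 at 138 and 142 and AKR7A2 at 105 and 92.9. No neighbours in this order overlapped among the control libraries, although AKR1C3 and AKR1B10 were close. Together the 7 genes took up 19757 and 19519 TPM in control cells and 5958 and 5939 TPM after deprivation. As a share of all gene counts they made up 1.86% and 2.08% in control cells and 0.572% and 0.532% after deprivation.

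The order changed with deprivation. AKR1B1 became the most abundant of the 7, at 2441 and 2342 TPM, ahead of AKR1B10 at 1287 and 1357 TPM and AKR1C3 at 1303 and 1294 TPM, which overlapped. AKR1C2 followed at 766 and 767 TPM, and AKR1C1 at 87.6 and 96.3 TPM. AKR1A1, at 37.7 and 45.2 TPM, and AKR7A2, at 36.0 and 37.8 TPM, now overlapped as well. AKR1B1 held 18.4% of the genes' summed TPM in control cells and 40.2% after deprivation. AKR1C1 went from 4.80% to 1.55% and AKR1C3 from 30.9% to 21.8% of that sum. These shares depend on the transcript lengths used. The main AKR1C1 transcript is annotated at 6705 bases, of which 5544 follow the coding sequence, against 1590 bases in all for AKR1B10. Per kilobase of coding sequence, a choice made after seeing the data, AKR1C1 made up 12.8% of the sum in control cells and 4.95% after deprivation, AKR1C2 27.1% and 24.0%, and AKR1B1 14.7% and 34.8%. That measure divides all counts of a gene, also those from outside the coding sequence, by its coding length. It therefore raises genes with long stretches outside it, and in AKR1C2-201 2599 of 3756 bases follow the coding sequence. The AKR1C2 counts also include a retained intron. By that measure AKR1C2 was the most abundant gene in control cells, at 27.1% against 25.0% for AKR1B10. AKR1B1 again led after deprivation.

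**Figure D1:**
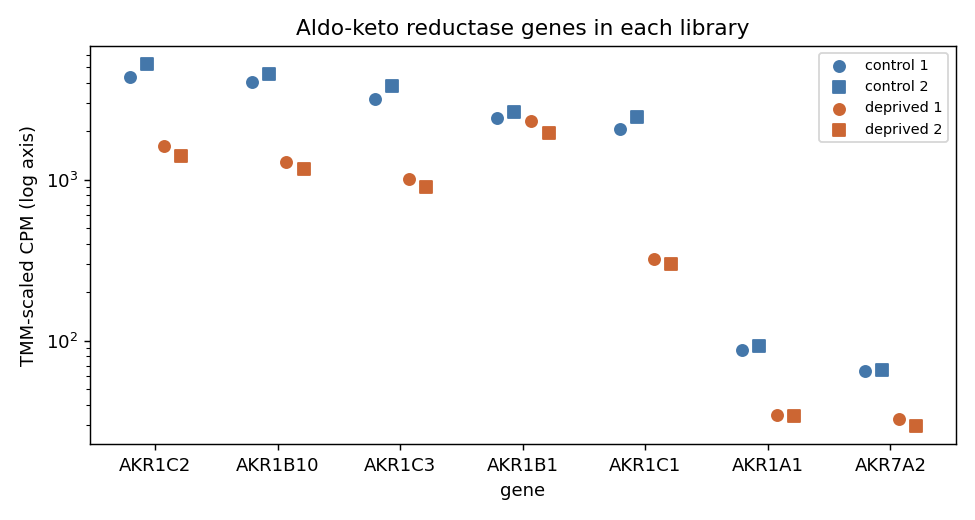
Level of each gene in each of the 4 libraries, as TMM-scaled CPM on a log axis; circles are replicate 1, squares replicate 2, blue control and orange glutamine-deprived. The groups are far apart for AKR1C1 (2078 and 2468 against 321 and 299) and close for AKR1B1 (2413 and 2654 against 2331 and 1949).

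The AKR1C enzymes are hydroxysteroid dehydrogenases encoded side by side on chromosome 10. Levels are given below as CPM, counts relative to library size, scaled by TMM, which sets the bulk of genes equal between libraries. CPM levels are not comparable between genes of different length. AKR1C1 (ENSG00000187134, hg38 chr10:4963253-4983283, plus strand), which inactivates progesterone, stood at 2078 and 2468 CPM in control cells and at 321 and 299 CPM in deprived cells. Both deprived libraries were far below both controls, and the controls differed from each other by more than the deprived libraries did. The log2 fold change was -2.87 ± 0.12 (SE, n = 2 per group; edgeR adjusted p = 2.36e-05). Of all tested genes, 872, or 3.56%, had a lower log2 fold change. With TMM scaling AKR1C1 was the one gene of the 7 to fall more than 4-fold, which 6.66% of tested genes did. With library size only, AKR1B10, AKR1C3 and AKR1C2 also fell more than 4-fold, at -2.14, -2.20 and -2.003 on the log2 scale.

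AKR1C2 (ENSG00000151632, chr10:4987400-5018031, minus strand), which inactivates dihydrotestosterone, stood at 4358 and 5238 CPM in control cells and at 1615 and 1408 CPM after deprivation. The controls differed from each other by more than the deprived libraries did, yet the groups did not overlap. The log2 fold change was -1.67 ± 0.14 (edgeR adjusted p = 0.00022), or 3.18-fold lower. AKR1C3 (ENSG00000196139, chr10:5035354-5107686, plus strand), which makes testosterone and prostaglandin F2alpha, was at 3154 and 3810 CPM in control cells and at 1011 and 897 CPM after deprivation. Its pattern over the libraries resembled that of AKR1C2, with control 2 the highest and deprived 2 the lowest. The log2 fold change was -1.87 ± 0.14 (edgeR adjusted p = 0.000122), or 3.65-fold lower.

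Summed before the test, so that reads exchanged among them cannot move the value, AKR1C1, AKR1C2 and AKR1C3 took 9591 and 11516 CPM in control cells and 2946 and 2604 CPM in deprived cells. The sum fell 3.80-fold, a log2 fold change of -1.93 ± 0.15 (edgeR adjusted p = 0.000167). Within the sum, AKR1C3 kept a nearly constant share of counts, 32.9% and 33.1% in control cells and 34.3% and 34.4% in deprived cells. The AKR1C1 share went from 21.7% and 21.4% to 10.9% and 11.5%, while that of AKR1C2 went from 45.4% and 45.5% to 54.8% and 54.1%. The ratio of AKR1C1 to AKR1C2 counts, which no scaling between libraries can move, was 0.477 and 0.471 in control cells and 0.199 and 0.213 in deprived cells. Its groups did not overlap and its log2 difference was -1.21, against a pooled SD of 0.05 between replicates. With 2 libraries per group an exact two-sided permutation test cannot go below p = 0.333. Of the 21 ratios between these genes, 20 reached that value, and the ratio of AKR1B10 to AKR1C3 gave an exact permutation p = 0.667. The ratios are built from the same 7 genes and are not independent, and the share over other gene pairs was not computed. The test therefore cannot show that the genes parted.

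**Figure D2:**
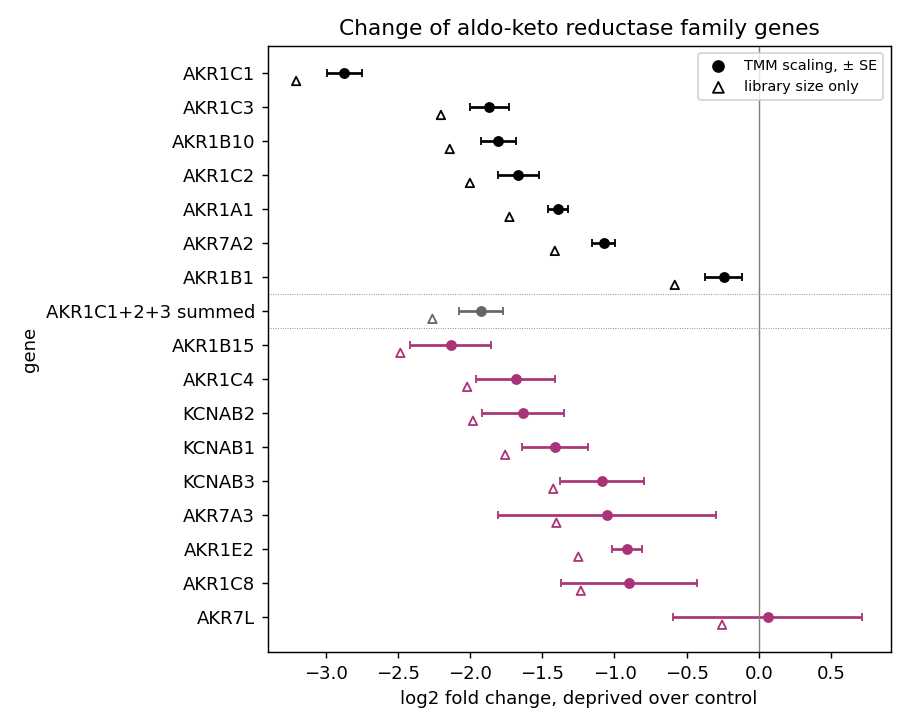
Log2 fold change, deprived over control, of the 7 genes (black), of AKR1C1 to AKR1C3 summed (grey) and of the other tested family genes (purple); circles and bars are the estimate ± SE with TMM scaling, open triangles the estimate with library size only. AKR1C1 at -2.87 lies furthest left and AKR1B1 at -0.24 is the nearest to 0 of the 7.

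The limits from close relatives were measured as the share of sequence windows of a gene's representative coding transcript that occur identically in another gene. At 100 bases, 32.9% of AKR1C2 windows and 17.4% of AKR1C1 windows were shared, nearly all between these genes: 31.1% of AKR1C2 windows lay in AKR1C1 and 17.2% of AKR1C1 windows in AKR1C2. AKR1C3 shared 4.98% of its windows at that length, AKR1B10 2.01%, AKR7A2 0.396%, and AKR1A1 and AKR1B1 none. At 150 bases the shared part was 21.2% for AKR1C2, 11.3% for AKR1C1 and 1.33% for AKR1C3. The AKR1C3 windows came from AKR1C3-201, which did not carry most of the gene's counts. It held 13.3% and 4.07% of them in control cells and 9.19% and 19.3% in deprived cells. Over the AKR1C3 coding sequence alone, 9.77% of windows were shared at 100 bases and 2.68% at 150 bases. The sources used here do not give the read length. The split of counts between AKR1C1 and AKR1C2 is therefore uncertain, and their separate fold changes carry that uncertainty, whereas an exchange of reads between them does not move their sum with AKR1C3. Whether a shift in this split contributed to the deeper fall of AKR1C1 was not tested.

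**Figure D3:**
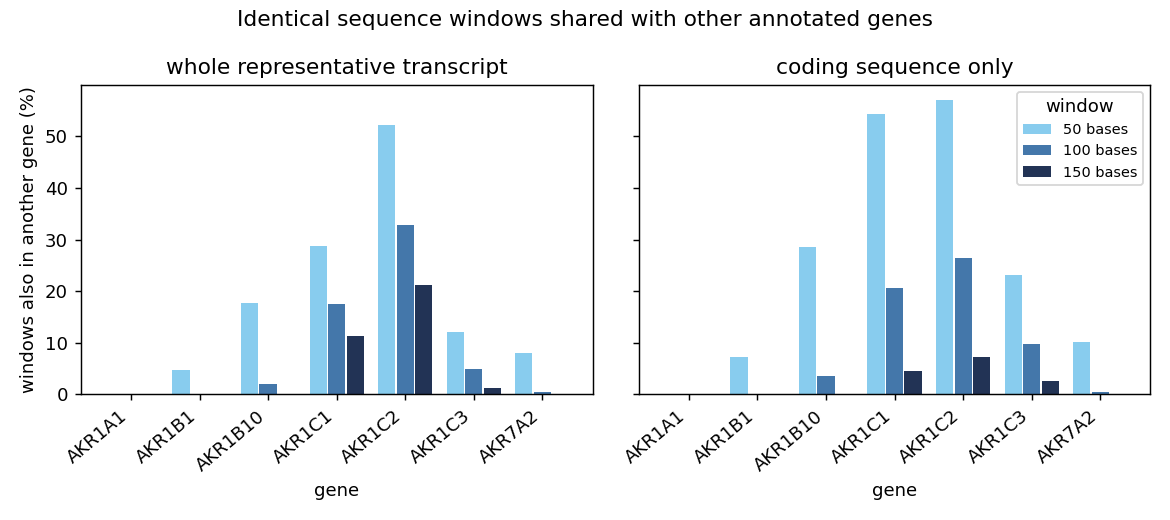
Percent of sequence windows of 50, 100 or 150 bases found identically in another annotated gene, for the representative transcript (left) and its coding sequence (right) of each of the 7 genes. AKR1C2 has the highest share, 52.2% of its transcript at 50 bases and 21.2% at 150 bases, and AKR1A1 has none.

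The deposited counts are per annotated transcript, so the transcripts behind each gene could be seen. AKR1C1 counts lay mostly on the coding transcript AKR1C1-202, at 87.0% and 88.5% in control cells and 92.8% and 92.2% in deprived cells. AKR1C2 counts lay on the coding transcript AKR1C2-201 and on AKR1C2-204, which is annotated as a retained intron, a transcript that keeps an intron and is not counted as coding. AKR1C2-204 took 32.0% and 30.7% of the gene's counts in control cells and 18.2% and 21.6% in deprived cells. The deprived libraries both lay below both controls for this share, and with 2 libraries per group no exact permutation test can reach significance. How often retained-intron shares separate the groups in this way over all genes was not counted. Windows that AKR1C2-204 shares with other genes were not measured. In AKR1C3, retained introns were also the smaller share after deprivation, 7.08% and 6.01% in control cells against 3.56% and 2.97%. AKR1B1 did not follow, with retained introns at 7.20% and 6.69% in control cells and 4.20% and 7.91% in deprived cells, where the groups overlapped.

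The division among coding transcripts was not stable in AKR1C3. AKR1C3-202 took 56.1% of the gene's counts in control 1 and 28.5% in control 2, and AKR1C3-209 took 22.8% and 61.3% in the same libraries. The controls thus differed from each other by more than they differed from the deprived libraries, in which AKR1C3-202 took 47.7% and 44.2%. No change of transcript use can be read from AKR1C3. Its gene sum differed less between the control libraries, at 3154 and 3810 CPM. The TPM of AKR1C3 rests on this division, since AKR1C3-202 is annotated at 972 bases and AKR1C3-209 at 1405 bases.

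**Figure D4:**
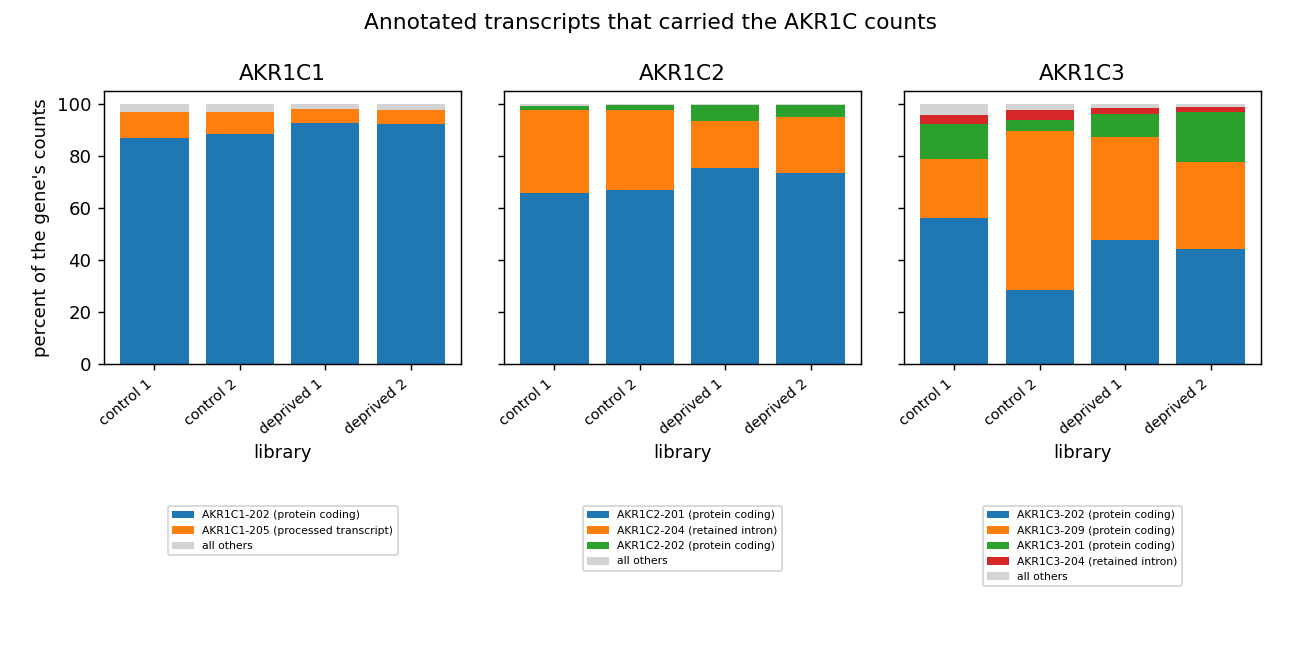
Percent of each AKR1C gene's counts on each annotated transcript, stacked, in the 4 libraries; transcripts never reaching 3% are pooled as all others. The retained intron AKR1C2-204 shrinks from 32.0% and 30.7% in control cells to 18.2% and 21.6% in deprived cells, and AKR1C3-202 and AKR1C3-209 trade places between the control libraries.

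An antisense RNA (ENSG00000224251, chr10:4995488-4997380, plus strand) overlaps AKR1C2 on the opposite strand. It had 1280 and 1145 counts in control cells and 105 and 163 after deprivation, a log2 fold change of -3.10 ± 0.24 (edgeR adjusted p = 0.000139). The labels name no step that marks strand, so reads of this gene and of AKR1C2 cannot be told apart where they overlap. Its counts were few beside the 498004 and 577114 of AKR1C2 in the same control libraries. A snoRNA annotation, U8, also lies within AKR1C2 and fell by 2.07 on the log2 scale, from 111 and 119 counts to 21 and 31. The pseudogenes of the cluster were at low counts. AKR1C5P fell (log2 fold change -2.23 ± 0.35), and AKR1C6P and AKR1C7P did not pass the test, at -1.01 ± 0.78 and -0.57 ± 0.22.

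The AKR1B genes lie next to each other on chromosome 7 and differed in the estimated size of their change. AKR1B10 (ENSG00000198074, chr7:134527592-134541408, plus strand), which reduces retinal and lipid aldehydes, stood at 4077 and 4552 CPM in control cells and at 1297 and 1169 CPM in deprived cells. The groups were well separated, and the log2 fold change was -1.81 ± 0.12 (edgeR adjusted p = 8.61e-05), or 3.50-fold lower. AKR1B1 (ENSG00000085662, chr7:134442350-134459284, minus strand), the aldose reductase that opens the polyol pathway by turning glucose into sorbitol, stood at 2413 and 2654 CPM in control cells and at 2331 and 1949 CPM in deprived cells. The deprived libraries were the lower ones, but deprived 1 was closer to control 1 than to deprived 2.

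The log2 fold change of AKR1B1 was -0.24 ± 0.13 and did not pass the test (edgeR adjusted p = 0.164). This call depended on the scaling. With library size only, AKR1B1 was at -0.58 (edgeR adjusted p = 0.0039), so that all 7 genes fell beside 34.9% of all tested genes, and with upper-quartile scaling at -0.35 (edgeR adjusted p = 0.0419). Library size only moved the median of all genes to -0.40 and upper-quartile scaling moved it to -0.17. The count ratio of AKR1B1 to AKR1B10, which no scaling moves, was 0.592 and 0.583 in control cells and 1.80 and 1.67 in deprived cells. The groups did not overlap, and the exact permutation p was 0.333, the lowest that 2 libraries per group allow. The coding sequences of AKR1B1 and AKR1B10 are 76.1% identical, and neither gene had a window of 150 bases in common with another gene.

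AKR1B15 is the nearest relative of AKR1B10, with 85.9% coding identity over 1032 aligned columns. Of these columns 84 were gaps, counted as differences because the AKR1B15 coding sequence is longer, and only 62 were mismatches. AKR1B15 was at 101 and 108 CPM in control cells and 31.1 and 16.4 CPM in deprived cells. It fell by 2.14 ± 0.28 on the log2 scale (edgeR adjusted p = 0.00133). The processed pseudogene AKR1B10P1, on chromosome 10, fell by 1.63 on the log2 scale, from 834 and 866 counts to 282 and 239. AKR1B10 itself had 465903 and 501491 counts in control cells, far more than either relative. Of its windows of 50 bases, 11.6% lay in AKR1B15 and 7.14% in AKR1B10P1. Whether misplaced reads of AKR1B10 added to the counts of these relatives was not tested.

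AKR1A1 and AKR7A2, on chromosome 1, are general aldehyde reductases. AKR1A1 (ENSG00000117448, chr1:45550543-45570049, plus strand) reduces glucuronate and many aldehydes. It stood at 87.5 and 92.9 CPM in control cells and at 34.4 and 34.3 CPM in deprived cells, so that replicates nearly coincided. The log2 fold change was -1.39 ± 0.07 (edgeR adjusted p = 3.55e-05), or 2.63-fold lower. AKR7A2 (ENSG00000053371, chr1:19303965-19312146, minus strand), which reduces succinic semialdehyde and aflatoxin dialdehyde, stood at 65.1 and 65.7 CPM in control cells and at 32.6 and 29.4 CPM in deprived cells. Its log2 fold change, -1.08 ± 0.08 (edgeR adjusted p = 0.000127), was the smallest among the 6 genes that fell, 2.11-fold. A fall of at least 2-fold past the test was seen for these 6 genes and for 15.3% of all tested genes. For both genes the identity to relatives matters little: AKR1A1 had no shared window, and AKR7A2 shared windows with AKR7L and AKR7A3, which had under 1 CPM in every library.

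The other family members were given as a list of 10 genes, of which 9 were tested. Of these 6 fell and none rose, with a median log2 fold change of -1.09, while 24.4% of all tested genes fell and 25.2% rose. AKR1C4, a liver steroid reductase, fell from 2.16 and 2.78 to 0.862 and 0.673 CPM, a log2 fold change of -1.69 ± 0.27. It had only 247 and 306 counts in control cells, and 6.20% of AKR1C3 windows of 50 bases lay in it. Whether misplaced reads of AKR1C1, AKR1C2 or AKR1C3 added to its counts was not tested. AKR1E2 fell from 29.1 and 29.2 to 16.7 and 14.3 CPM (-0.91 ± 0.10). The potassium channel beta subunits, which keep the aldo-keto reductase fold, fell as well: KCNAB1 by 1.42, KCNAB2 by 1.64 and KCNAB3 by 1.09 on the log2 scale. AKR1C8, AKR7A3 and AKR7L did not pass the test, at -0.90 ± 0.47, -1.05 ± 0.76 and 0.06 ± 0.66. AKR1D1 was below the filter.

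Genes that work beside these enzymes did not all move with them. The counts of this paragraph stand beside 24.4% of all tested genes that fell and 25.2% that rose. Of 13 other carbonyl reductases, 7 fell, 2 rose and 4 did not pass the test, with a median log2 fold change of -0.45. CBR1, which reduces prostaglandins and anthracyclines, fell by 1.35 and DHRS3, a retinal reductase, by 1.17 on the log2 scale. DHRS2 rose from 1.09 and 1.03 to 120 and 105 CPM (6.74 ± 0.12) and DHRS7 from 33.6 and 34.8 to 68.0 and 69.3 CPM (1.01 ± 0.07). Of 16 tested steroid and prostaglandin enzymes, 11 fell and 2 rose, with a median of -1.21. Among these, PTGES, a prostaglandin E synthase, fell by 2.12, HSD3B7, of bile acid synthesis, by 1.46, HSD17B4, of peroxisomal beta-oxidation, by 1.26, and PTGS2, the inducible cyclooxygenase, by 1.24. HSD17B12 and PTGES3 rose, at 0.79 ± 0.09 and 0.66 ± 0.07 (named after their values were seen).

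The polyol and glyoxalase pathways handle the same sugars and sugar-derived aldehydes as AKR1B1. Of 7 listed genes 5 fell and 2 rose, with a median of -0.48, beside 24.4% and 25.2% of all tested genes. KHK, the ketohexokinase, fell by 3.03 on the log2 scale, TKFC, the triokinase, by 0.93, HAGH, the second glyoxalase enzyme, by 0.48, and SORD, the sorbitol dehydrogenase downstream of AKR1B1, by 0.27. SLC2A5, the fructose transporter, had 14 and 11 counts in control cells and 0 in both deprived libraries. Against a floor of 3 counts per library it was at least 3.94-fold lower, and the median of the list stayed at -0.48 with the gene at this bound. GLO1, the first glyoxalase enzyme, and PARK7 rose with TMM scaling, at 0.43 ± 0.09 and 0.39 ± 0.12. They did not pass the test with library size only, at 0.10 and 0.05. Leaving out control 1 or deprived 1 left 1 gene of the list higher, and the number that fell was 4 without control 1 or deprived 1, 2 without control 2 and 3 without deprived 2.

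The regulators and other targets of NRF2 are given beside these because AKR1B10 and the AKR1C genes belong to the same regulon. Of 8 genes that control NRF2, 7 rose and 1 fell, with a median of 1.09. By the same test 25.2% of all tested genes rose and 24.4% fell. NFE2L2, which encodes NRF2, rose from 122 and 136 to 382 and 367 CPM (1.54 ± 0.08). Its small MAF partners rose too, MAFF at 6.47 ± 0.13, MAFK at 2.66 ± 0.08 and MAFG at 0.81 ± 0.08, as did BACH1, a repressor at the same elements, at 1.38 ± 0.09, and CUL3, part of the ligase that marks NRF2, at 0.62 ± 0.07. SQSTM1, which binds KEAP1, rose with TMM scaling at 0.34 ± 0.11 but lay at 0.00 with library size only. KEAP1 fell by 0.67 on the log2 scale.

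Of 34 other NRF2 targets, 20 fell, 2 rose and 12 did not pass the test. Among all tested genes 24.4% fell and 25.2% rose. The median of the targets, -0.43, lay nearer to that of all genes than the median of the aldo-keto reductases did. The number of targets that fell was 17 with RLE scaling, 26 with upper-quartile scaling and 28 with library size only. GPX2, a glutathione peroxidase, fell by 4.64, CYP4F3, a fatty acid hydroxylase, by 2.40, HMOX1, the haem oxygenase, by 2.11 and EPHX1, an epoxide hydrolase, by 1.90 on the log2 scale. TXNRD1, a thioredoxin reductase, rose at 1.17 ± 0.11, and OSGIN1 rose at 0.38 ± 0.09. NQO1, a widely used NRF2 marker, stood at 0.14 ± 0.12 and did not pass the test (edgeR adjusted p = 0.393). These 3 genes were named after their values were seen. OSGIN1 lay at 0.04 with library size only, and leaving out either control left 1 gene higher in place of 2.

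**Figure D5:**
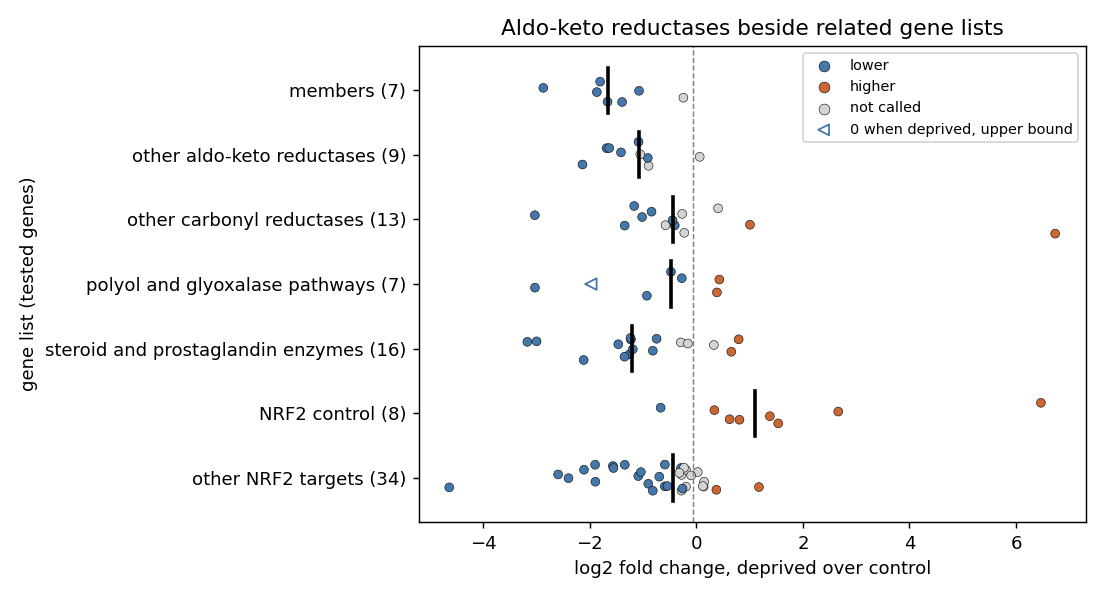
Log2 fold change, deprived over control with TMM scaling, of each tested gene in the 7 aldo-keto reductases and in the related lists; blue marks genes that fell, orange genes that rose, grey genes that did not pass the test, thick bars the list medians, the dashed line the median of all tested genes and the open triangle the bound for SLC2A5. The median is -1.67 for the 7 genes and 1.09 for the NRF2 regulators.

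Genes whose pattern over the 4 libraries was most like that of a given enzyme were found in a pool of 9511 protein-coding genes that averaged 10 CPM or more, by the distance between centred log2 CPM. For AKR1C1 they were RARRES1 at a distance of 0.132, HSPB1 at 0.168 and KHK at 0.174. For AKR1B10 they were PRIM2 at 0.033, MELK at 0.053 and RAB27B at 0.054, and for AKR1A1 KDELR3 at 0.033, NRIP1 at 0.036 and TTC30B at 0.040. For AKR1B1 they were FBL at 0.011, MRPL55 at 0.021 and PSMD8 at 0.027. Over 4 libraries in 2 groups this distance mainly compares the size of the change.

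The libraries held between 101496318 and 123414592 counts, so that counting error is small for these genes, the rarest of which, AKR7A2, had 3194 counts in its lowest library. The label calls the cells alveolar basal epithelial. The epithelial keratins KRT8 and KRT18 were abundant in control cells, at 5154 and 5235 CPM and at 2235 and 2279 CPM, while the airway basal list was mixed. Of its 3 markers, KRT5 and KRT14 were at 0 in 3 libraries and under 1 CPM in control 1, and TP63 was at 5.40 and 5.67 CPM in control cells and at 0.479 and 0.765 CPM in deprived cells. Of 9 alveolar type II markers, the surfactant genes SFTPA1, SFTPA2, SFTPB, SFTPC and SFTPD were under 1 CPM in all 4 libraries, and SFTPA1 was at 0. ABCA3, a lipid transporter, was the most abundant, at 41.2 and 41.3 CPM in control cells and 27.7 and 28.6 CPM in deprived cells. NAPSA was at 2.77 and 1.47 CPM in control cells and 0.737 and 0.756 CPM after deprivation. LAMP3 and NKX2-1 rose, with log2 fold changes of 3.47 ± 0.66 and 4.26 ± 0.60, to at most 3.03 and 0.811 CPM. The epithelial markers themselves moved with deprivation: 5 of 6 fell and KRT7 rose, and their summed level went from between 8226 and 8387 CPM to between 3566 and 4179 CPM. No blood, fibroblast or endothelial marker exceeded 1 CPM in all 4 libraries. The summed blood markers lay between 14.3 and 26.0 CPM in control cells and between 1.41 and 1.72 CPM in deprived cells. The summed fibroblast markers went from between 2.25 and 2.39 CPM to between 1.27 and 1.91 CPM, and the endothelial ones from between 0.735 and 0.910 CPM to between 0.124 and 0.166 CPM. Their part in the change of the aldo-keto reductases was not tested.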

How the data were processed

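Polyadenylated RNA of 4 A549 libraries was measured. The deposited values are estimated counts per Ensembl transcript, whole numbers as deposited by the authors. Per the submitters' processing notes, without roles, hg38 was the build and the tools included featureCounts 1.5.0-p3, HISAT2 2.0.5 and DESeq2 1.20.0. Neither the annotation release nor the tool behind the division of reads is given in the sources used here. Of 7456 transcript pairs in which one covers all exons of the other, the covering transcript had fewer counts in 3258, so each transcript was not credited with every read that overlaps it. Such division can move counts between near-identical genes.

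Counts were summed to genes with GENCODE release 29, which matched 205306 of 229420 transcripts and between 98.0% and 98.2% of counts. Genes that passed edgeR's default expression filter were tested with edgeR 4.0.16 (R 4.3.3), using TMM factors of 1.15, 1.10, 0.862 and 0.919, glmQLFit and glmQLFTest, two-sided, with Benjamini-Hochberg adjustment over all tested genes and a threshold of 0.05. The scripts were tested on simulated data with the same variation for all genes and 100 genes changed at each fold. Of these, 27% were recovered at 2-fold and 87% at 4-fold, with 6 false calls. In the measured data 49.6% of tested genes passed, a far larger part than was changed in the simulation. These recovery rates are therefore not those of the measured genes. Failing the test does not show that a gene was unchanged. The common biological coefficient of variation was 0.210. Replicates differed by more than sampling noise, with chi-square per degree of freedom of 31.0 in control and 43.6 in deprived libraries.

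The genes and lists were chosen with earlier results of these data known. Named genes are the 7 enzymes, from each list as many as 4 genes of smallest p, every gene of a list of under 11, the 3 genes most alike for each of 4 enzymes, and overlapping genes and pseudogenes. Alternatives changed the scaling (RLE, upper quartile, library size only), the filter, the tool (DESeq2 1.42.0, limma-voom 3.58.1), the libraries, the replicate block, the transcripts summed and the merging of close relatives. Protein sequences were not used here.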

Additional observations from a re-analysis of the deposited data

How the results depend on the processing

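The 6 genes that fell kept their direction and call in all 78 alternatives in which they were fitted as single genes. AKR1B1 passed the test with upper-quartile factors (-0.35) and with library size only (-0.58). With AKR1C1 to AKR1C4 and AKR1C8 merged to 1 feature, and AKR1B10 with AKR1B15, 4 of the 5 remaining features fell. The polyol and glyoxalase genes that rose numbered 2, and 1 with upper-quartile factors, 0 with library size only, 1 with no filter and 1 with coding transcripts only, and from 1 to 2 when a library was left out. Those that fell numbered 5, and 3 with no filter and from 2 to 4 when a library was left out. The other NRF2 targets that rose numbered 2, and 1 with library size only and from 1 to 2 when a library was left out. Of 224 alternatives for counts of genes, 210 gave a count no more than 1.5 times above or below the reported one. Merging leaves fewer features to call, and the cause of the changes was not tested.

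With a library left out, AKR1B1 lay between -0.37 and -0.11, AKR1C1 between -3.00 and -2.76 and AKR1C2 between -1.80 and -1.54 in log2. When 1 library of a group is left, it is assumed to vary like the other group. Merging the AKR1C genes gave a log2 fold change of -1.93 for the merged feature.

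The replicate numbers are not stated to pair the libraries, and deviations of same-numbered libraries correlated at -0.02. With the replicate block, the polyol and glyoxalase counts became 1 higher and 3 lower. The log2 fold change of AKR1C1 was -2.87, of AKR1C2 -1.66, of AKR1C3 -1.86, of AKR1B10 -1.81, of AKR1B1 -0.25, of AKR1A1 -1.39 and of AKR7A2 -1.08, and no enzyme changed its call.

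Depth limits the genes of few counts, such as SLC2A5, for which only a bound on the fold can be given.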
